A study of Mus musculus with 16 samples.

Results

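The genes that add or remove methyl groups on histone lysines, the histone deacetylases and the CHD chromatin remodellers were followed across the cell classes of the embryonic mouse forebrain. Members were taken by symbol: every gene in the deposited gene list whose symbol starts with Kdm, Kmt, Setd, Hdac, Sirt or Chd followed by a digit or letter, with Kdm5c and Kdm5d left out. That gave 61 of 14498 genes, of which 15 were Kdm, 5 Kmt, 11 Setd, 11 Hdac, 7 Sirt and 12 Chd symbols. The rule works on symbols and uses no measured value, although it was set with earlier results of these data known. The cells came from the forebrain of wild-type CD1 mice, an outbred strain, at embryonic day 15.5, and carried no transgene or treatment that the labels name. All 16 samples share these labels, so they form 1 group, and the series describes its design as single-cell RNA-seq of the embryonic cerebral cortex at that age. The comparisons below are therefore between cell classes inside 1 pool.

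Histone lysine methylation is written by SET-domain methyltransferases and removed either by the amine oxidases Kdm1a and Kdm1b or by Jumonji-domain demethylases. Methylation of H3K4 marks promoters and enhancers in use, that of H3K36 marks transcribed gene bodies, and that of H3K9 and H3K27 marks silent chromatin. Zinc-dependent deacetylases of the Hdac families and the NAD-dependent sirtuins take acetyl groups off histones and other proteins, while CHD proteins use ATP to move nucleosomes. In the embryonic cortex, radial glia divide at the ventricle, intermediate progenitors derived from them divide in the subventricular zone, and their daughters migrate outward and become excitatory neurons. Interneurons and striatal neurons come from progenitors of the ganglionic eminences. Several of these genes, CHD7, CHD8, KMT2D and SETD5 among them, are known in humans from neurodevelopmental disorders.

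The pooled matrix held 5777 cells and 21609944 unique molecular identifiers (UMIs, each standing for 1 captured RNA molecule), with a median of 3258 UMIs per cell and a range of 1111 to 17398. Cells fell into 24 clusters drawn without the members, and 21 of these took a name from marker genes: 854 radial glia-like, 409 intermediate progenitor-like, 756 migrating excitatory neuron-like, 1514 excitatory neuron-like, 796 interneuron-like, 266 striatal neuron-like and 513 ganglionic eminence progenitor-like cells, with 4 smaller classes. A further 517 cells stayed unnamed. They include a cluster of 216 cells, led by genes of dividing cells such as Rrm2, Bub1b and Top2a, whose best-scoring marker list was intermediate progenitor. That cluster is not part of the intermediate progenitor-like class. Cells of the ganglionic eminences and the striatum were thus present beside those of the cortex that the series names. Over the 7 large classes the summed markers of microglia stood at 1.66 to 13.8 CPM, those of endothelium at 1.38 to 7.22 CPM, and those of meningeal fibroblasts at 9.31 to 66.3 CPM. Cell names carry no sample, so no animal or library could be separated. The matrix does hold 2 runs of cells, of 3647 and 2122 cells, told apart by where Y-linked UMIs and 11 genes out of alphabetical order lie. Values of each run are given as a check, although the labels name neither run. The second run held only 31 ganglionic eminence progenitor-like and 18 striatal neuron-like cells.

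UMIs were summed over the cells of a class and scaled to counts per 1000000 UMIs of that class (CPM). Each level has an exact Poisson 95% interval, given in brackets. Each ratio of 2 classes has an exact conditional binomial 95% interval. Both cover counting error only, because cells of 1 pool are not replicates, so no p-value is given. A member was measured in a comparison with at least 50 UMIs over both classes, and it was called at 1.5-fold or more. The CPM of different genes were not compared with each other, since the captured length of each transcript is unknown.

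The 61 members held 131115 UMIs, with a median of 1319 per member and a range of 17 (Chdh) to 10559 (Hdac2). By function 2 of them belong elsewhere. Chdh encodes choline dehydrogenase, a mitochondrial enzyme, and with 17 UMIs it was measured in no comparison. Chd3os, named Rnf227 in the current RefSeq table, lies tail to tail with Chd3 on the opposite strand, with 631 bases between the gene ends. Setd8 is the older symbol of Kmt5a, which monomethylates H4K20. Chd7 lies at chr4:8690406-8867659 on the plus strand, Chd5 at chr4:152338651-152390194 on the plus strand, Kdm1a at chr4:136550540-136602723 on the minus strand and Hdac9 at chr12:34047580-34917095 on the minus strand, in mm10 with GENCODE M21 models. The 61 genes lie on 20 chromosomes, and only 4 pairs lay within 500000 bases of each other. Chd3, Chd3os and Kdm6b form 3 of these pairs on chromosome 11, where 29101 bases lie between Chd3 and Kdm6b, both on the minus strand. Kdm2b and Setd1b on chromosome 5, 152369 bases apart on opposite strands, are the remaining pair.

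The RefSeq promoter table (GRCm38.p6, the assembly behind mm10) held 65 windows of 250 bases upstream of the start for 45 members. These windows had a median of 19 CG dinucleotides, against a median of 6 in all 32851 windows of the table. Those windows cover 27025 genes and were not matched to the members by expression or gene type. A gene with several listed starts counts once per start. At least 10 CG dinucleotides stood in 52 member windows (80%), against 37.8% of all windows. The letters CAGATG, 1 form of the E-box that proneural factors bind, were searched on both strands. They stood in 5 member windows (7.69%), against 14.4% of all windows. A match is a description of letters, not a binding site. Windows of 4 members whose levels differed over 2-fold between classes are shown, 5′ to 3′ on the gene's strand, to set the CG-poor start of Hdac9 beside the CG-rich others. Capitals mark CG dinucleotides and, in Hdac9, the E-box letters as read on the opposite strand.
Hdac9, chr12:34917096-34917345, minus strand, 0 CG: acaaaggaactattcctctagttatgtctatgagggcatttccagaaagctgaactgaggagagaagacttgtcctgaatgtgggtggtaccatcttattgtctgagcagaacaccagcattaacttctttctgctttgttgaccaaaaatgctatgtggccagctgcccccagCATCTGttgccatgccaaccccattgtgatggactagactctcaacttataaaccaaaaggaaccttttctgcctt
Kdm7a, chr6:39206774-39207023, minus strand, 56 CG: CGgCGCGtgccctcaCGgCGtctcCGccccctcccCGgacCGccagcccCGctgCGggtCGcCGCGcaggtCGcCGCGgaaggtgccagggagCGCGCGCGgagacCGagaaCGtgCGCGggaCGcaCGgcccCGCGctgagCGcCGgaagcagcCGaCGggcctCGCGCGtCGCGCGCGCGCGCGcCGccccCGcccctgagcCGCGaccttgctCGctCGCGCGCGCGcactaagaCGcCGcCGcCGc
Chd5, chr4:152338401-152338650, plus strand, 21 CG: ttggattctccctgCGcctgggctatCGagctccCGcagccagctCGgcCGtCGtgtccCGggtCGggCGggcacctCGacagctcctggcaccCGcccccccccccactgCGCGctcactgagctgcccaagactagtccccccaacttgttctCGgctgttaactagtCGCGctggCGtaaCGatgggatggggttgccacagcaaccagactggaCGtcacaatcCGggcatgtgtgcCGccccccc
Chd1l, chr3:97610191-97610440, minus strand, 17 CG: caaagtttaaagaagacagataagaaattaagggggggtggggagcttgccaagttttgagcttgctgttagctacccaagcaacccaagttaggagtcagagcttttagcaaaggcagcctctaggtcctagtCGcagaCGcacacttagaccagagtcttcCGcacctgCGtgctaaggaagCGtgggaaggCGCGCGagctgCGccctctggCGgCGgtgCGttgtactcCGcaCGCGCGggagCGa
The CG count of the 65 windows ranged from 0, as in the Hdac9 window, to 56, as in the Kdm7a window. A second listed Hdac9 start, inside the gene, had 2 CG dinucleotides in its window.

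Of all UMIs, the members took 0.531% in radial glia-like cells, 0.746% in intermediate progenitor-like cells, 0.732% in migrating excitatory neuron-like cells and 0.594% in excitatory neuron-like cells. In the ventral classes they took 0.644% in interneuron-like and 0.646% in striatal neuron-like cells, against 0.544% in ganglionic eminence progenitor-like cells. Both runs gave this order along the cortical lineage, except that migrating cells stood just above intermediate progenitors in the second run (7538 and 7522 CPM summed over members). Among the 60 members with enough UMIs over these 7 classes, 19 were highest in intermediate progenitor-like cells and 15 in migrating neuron-like cells. A further 8 were highest in radial glia-like, 7 in interneuron-like, 6 in striatal neuron-like, 3 in excitatory neuron-like and 2 in ganglionic eminence progenitor-like cells. At least 1.5-fold lay between the highest and the lowest class for 49 of the 60, against 87.9% of all 11351 genes with as many UMIs. Kmt2a, the founding H3K4 methyltransferase of its family, varied least, with 190.0 CPM in radial glia-like cells as its lowest and 215 CPM in migrating cells as its highest level. Chd7 varied most, with 470.4 CPM in intermediate progenitor-like cells as its highest and 33.6 CPM in excitatory neuron-like cells as its lowest level.

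**Figure D1:**
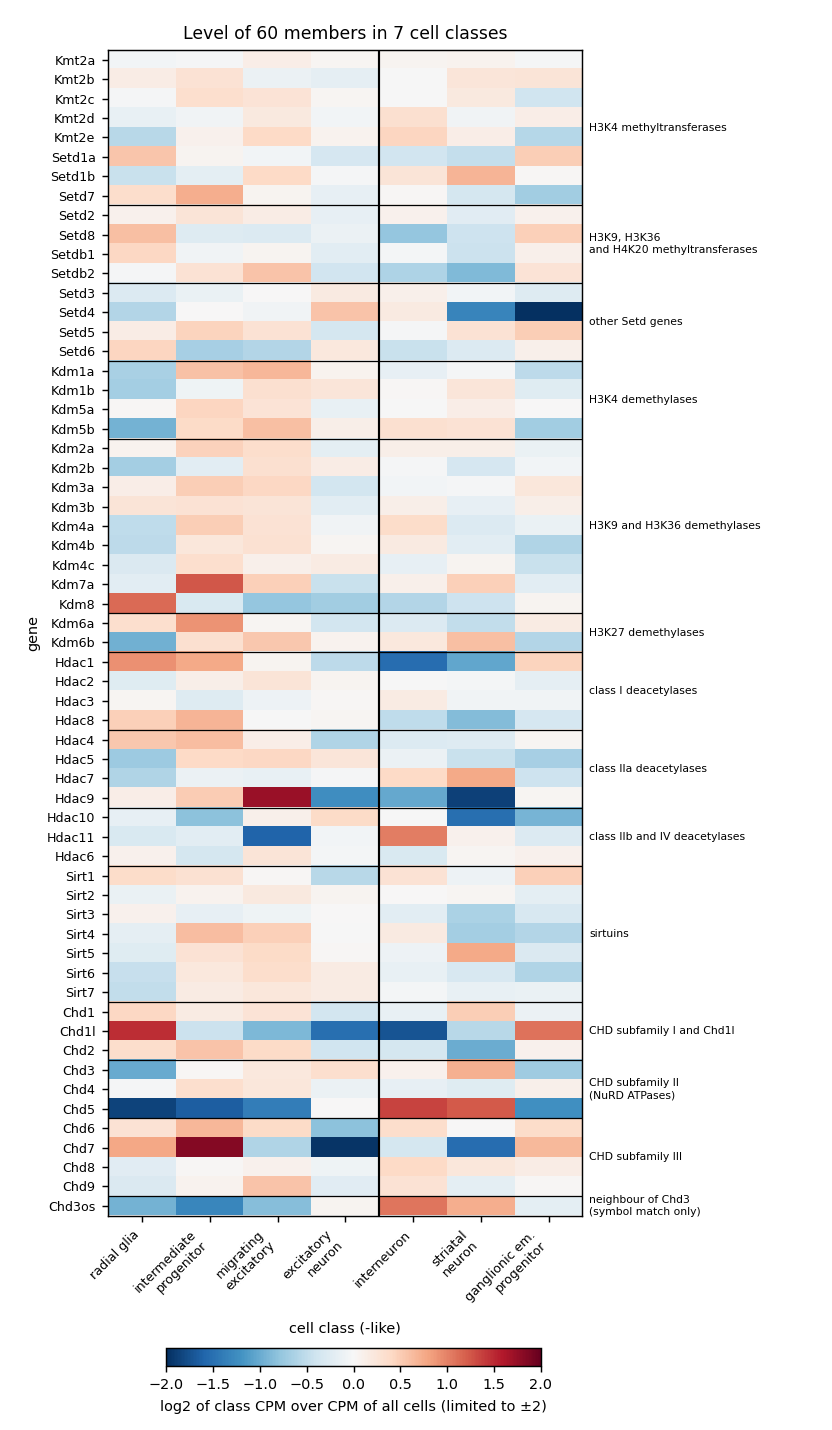
Level of 60 members (rows, grouped by role; Chdh is left out) in 7 cell classes (columns), as log2 of the class CPM over the CPM of all cells, with red for higher and blue for lower and colours limited to 2 in either direction. Chd7 is reddest in intermediate progenitors, Hdac9 in migrating neurons, and Chd5 in interneurons and striatal neurons.

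Excitatory neuron-like cells were first set against radial glia-like cells, the end points of the cortical lineage. Chd5 and Chd3, 2 ATPases of the NuRD deacetylase complex, and the H3K4 demethylases Kdm5b, Kdm1b and Kdm1a were higher in neurons. Chd7 and Chd1l were lower in neurons, by more than 6-fold each. Of 59 measured members 13 were at least 1.5-fold higher (22.0%, against 23.5% of the 10582 genes measured), and 13 were at least 1.5-fold lower (22.0%, against 30.2%). These shares are near or below those of all genes. The median log2 ratio of members was 0.06, against -0.13 over all genes. All 26 called members pointed the same way in both runs. Under 7 other ways of clustering, 10 of the 13 higher and 10 of the 13 lower stayed past the limit throughout, and Kdm1b, Kdm2b, Sirt6, Setdb1, Kdm6a and Chd2 did not.

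Among the remodellers, Chd3 had 614 CPM (595 to 632) in excitatory neuron-like cells, against 243 CPM (226 to 261) in radial glia-like cells. It was 2.52-fold higher (2.34 to 2.73), by 2.5-fold in the first run and 2.57-fold in the second. Chd5, a NuRD ATPase known mainly from neurons, had 26.1 CPM (22.4 to 30.1) in excitatory neuron-like cells and 7.22 CPM (4.58 to 10.8) in radial glia-like cells, a level 3.61-fold higher (2.33 to 5.84). Within the excitatory neuron-like cells Chd5 was uneven, with 46.4 CPM in the Hs3st4-led deep-layer cluster and 14.1 CPM in the Crym-led cluster. Chd4, the third NuRD ATPase, had 307 CPM in neurons and 328 CPM in radial glia, and its ratio of 0.938 (0.87 to 1.01) did not differ from 1 beyond counting error. Chd3os, the neighbour of Chd3, was 1.99-fold higher (1.65 to 2.41) in neurons.

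The other CHD genes that were called were all lower in neurons. Chd7, whose loss of a copy causes CHARGE syndrome in humans, had 33.6 CPM (29.5 to 38.2) in excitatory neuron-like cells, against 225 CPM (209 to 242) in radial glia-like cells. It was 6.68-fold lower (5.76 to 7.78), by 6.13-fold in the first run and 7.33-fold in the second. Among cells that were not dividing, 11 of 58 measured members were higher (23.8% of all genes) and 14 lower (28.3%), and Chd7 was 10.1-fold lower. Chd1l, a remodeller that poly(ADP-ribose) activates at DNA breaks, had 20 UMIs in excitatory neuron-like cells and 72 in radial glia-like cells. It was 7.9-fold lower (4.76 to 13.7). Among cells that were not dividing it had 20 and 14 UMIs, under the minimum for a ratio. Chd6 was 2.15-fold lower (1.86 to 2.49), Chd1, a reader of trimethylated H3K4, was 1.73-fold lower (1.44 to 2.09), and Chd2 was 1.68-fold lower (1.43 to 1.98). Chd8 and Chd9 stayed under the limit.

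Of the demethylases of H3K4, 3 of 4 were called higher (23.5% of all genes) and 0 lower (30.2%), a count too small to be read as a share. Kdm1a, the CoREST demethylase also named LSD1, had 448 CPM (432 to 464) in excitatory neuron-like cells and 272 CPM (254 to 290.4) in radial glia-like cells. It was 1.65-fold higher (1.53 to 1.78), and Kdm1b, its paralogue, was 1.91-fold higher (1.56 to 2.34). Kdm5b, which removes H3K4 trimethylation, was 2.09-fold higher (1.83 to 2.39), while Kdm5a had a ratio of 0.89 (0.783 to 1.01). The Kdm5b difference shrank to 1.32-fold when only cells that were not dividing were used, which is under the limit. In those cells Kdm1a and Kdm1b stood just past it, at 1.51-fold and 1.59-fold. The H3K27 demethylases went opposite ways: Kdm6b was 2.05-fold higher (1.82 to 2.31), and the X-linked Kdm6a was 1.63-fold lower (1.33 to 1.99). In the first run Kdm6a had 32 CPM in excitatory neuron-like and 45.3 CPM in radial glia-like cells, under the limit. In the second run it had 34.4 and 65.8 CPM. Of 8 measured H3K9 and H3K36 demethylases only Kdm2b, a CpG-island-binding protein of a variant Polycomb complex, was called, at 1.77-fold higher (1.49 to 2.12).

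Of the Kmt and Setd members 5 were called, Setd8, Setdb1 and Setd1a lower and Kmt2e and Setd4 higher. Setd8 was 1.64-fold lower (1.47 to 1.84), and the difference shrank to 1.35-fold among cells that were not dividing. Setdb1, which silences retrotransposons through H3K9 trimethylation, was 1.54-fold lower (1.37 to 1.74), and Setd1a, an H3K4 methyltransferase of the COMPASS type, was 1.85-fold lower (1.53 to 2.25). Kmt2e, which reads trimethylated H3K4 through its PHD finger, was 1.54-fold higher (1.43 to 1.66) and reached 1.31-fold among cells that were not dividing. Kmt2a and Kmt2c stood near 1, with ratios of 1.07 (0.97 to 1.18) and 1.04 (0.944 to 1.15). Setd4 was 2.24-fold higher (1.41 to 3.72), on 108 UMIs in neurons and 22 in radial glia.

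Among the zinc-dependent deacetylases, Hdac5, a class IIa enzyme that shuttles between nucleus and cytoplasm, was the only member called higher. It had 149 CPM (141 to 159) in excitatory neuron-like cells and 76.3 CPM (67 to 86.5) in radial glia-like cells, 1.96-fold higher (1.7 to 2.26). Hdac1 was 2.7-fold lower (1.94 to 3.77), whereas its close paralogue Hdac2 had 509 CPM in neurons and 415 CPM in radial glia, a ratio of 1.23 (1.15 to 1.31). Hdac1 rests on 69 UMIs in neurons and 85 in radial glia, and its distance was 2.14-fold in the first run and 3.48-fold in the second. A pseudogene of Hdac1 on chromosome 17 shares 60.9% of the 30-base words of the longest Hdac1 transcript but 0% of those in its last 500 bases. How reads shared with it were counted is not given in the sources used here, so the level of Hdac1 is uncertain. Hdac9 and Hdac4, also of class IIa, were 2.61-fold lower (1.89 to 3.6) and 2.22-fold lower (1.6 to 3.09). Of 7 sirtuins, Sirt1, a nuclear deacetylase, was 1.91-fold lower (1.55 to 2.35). Sirt7 was 1.57-fold higher (1.25 to 1.99) and Sirt6 1.53-fold higher (1.17 to 2.02), and both were under the limit among cells that were not dividing, at 1.13-fold and 1.44-fold.

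**Figure D2:**
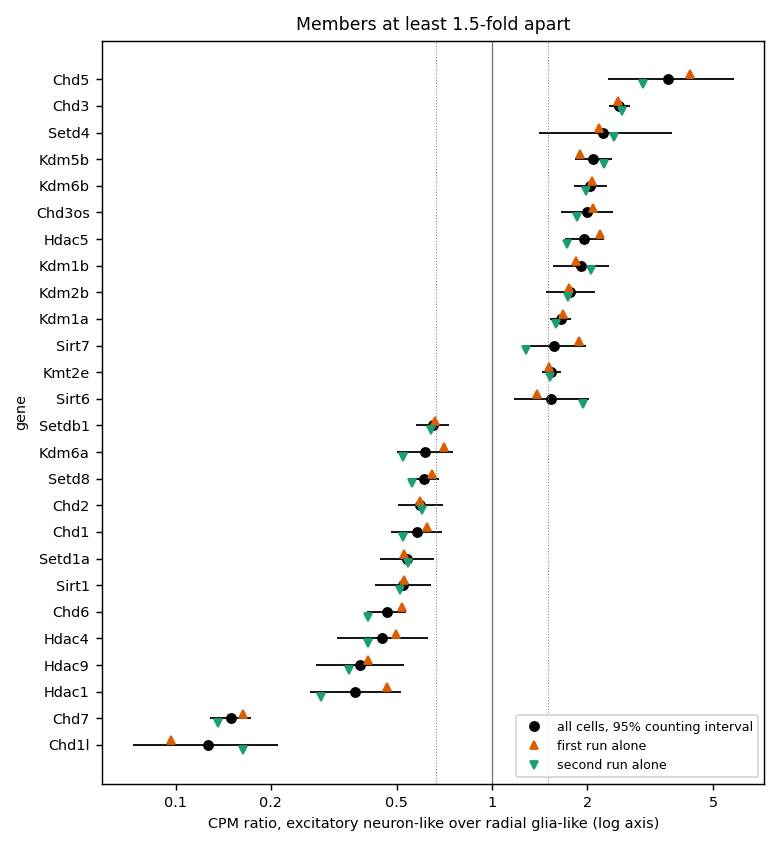
Ratio of CPM in excitatory neuron-like over radial glia-like cells (log axis) for the 26 members at least 1.5-fold apart. Points are all cells with the 95% counting interval, triangles are each run alone, the solid line marks 1 and dotted lines mark the 1.5-fold limit. Chd5 stands highest at 3.61 and Chd1l lowest, and each run lies on the same side of 1 as the pooled value.

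Genes that work in complexes with these enzymes were counted in the same comparison, from lists chosen with earlier results of these data known. Of all genes 23.5% were higher and 30.2% lower here, and each count below is to be read against these shares, so that 4 lower of 12 or 13 is near the share of all genes. Among 10 NuRD subunits other than members, 0 were higher and 7 lower in excitatory neuron-like cells, with a median log2 ratio of -0.73. Their partner ATPases Chd3 and Chd5 were on the opposite side, while the third, Chd4, was not called, at a log2 ratio of -0.09. Rbbp7 was 3.05-fold lower and Mta1 2.33-fold lower. Of 12 COMPASS subunits 0 were higher and 4 lower, led by Wdr5 at 2.47-fold and Pagr1a at 1.82-fold lower. CoREST and REST genes split, with 1 of 8 higher (Phf21b, 2.04-fold) and 2 lower, Rest, the repressor of neuronal genes, by 9.87-fold and Hmg20b by 3.46-fold.

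In PRC2, the H3K27 methyltransferase complex, 3 of 8 measured genes were higher, among them Phf1 (2.39-fold) and Mtf2 (1.67-fold), and 4 lower, among them Aebp2 (4.95-fold) and Suz12 (2.64-fold). Of 17 other histone methyltransferases 4 were higher and 3 lower, with Prdm8 8.87-fold and Smyd3 1.9-fold higher, and Prdm16 28.3-fold and Suv39h1 3.01-fold lower. Of 13 histone acetyltransferases 0 were higher and 4 lower, led by Hat1 (6.06-fold) and Kat2a (2.28-fold). The Sin3 list had 0 of 13 higher and 3 lower, led by Ing2 (2.26-fold) and Sin3a (2.19-fold). Of 8 other Jumonji genes, Hr (4.92-fold) and Jarid2 (1.64-fold), which is also on the PRC2 list, were higher and Uty (4.27-fold) lower. Hr rests on 54 UMIs in neurons and 5 in radial glia, and Uty on 19 and 37. Uty is among the Y-linked genes that told the runs apart, so its UMIs lie in the first run. That run held 722 of 1514 excitatory neuron-like and 511 of 854 radial glia-like cells, which enters its ratio. All 30 G2/M genes and all 28 S-phase genes were lower, and of 14 immediate early genes 1 was higher and 9 lower. The part of cell division or of cell dissociation in the differences of the members and of these lists was not tested. Values among cells that were not dividing are given for members only.

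The first step of the lineage set intermediate progenitor-like cells against radial glia-like cells. Kdm7a, Kdm5b, Kdm6b and Kdm1a, all demethylases, had the largest ratios, and 8 of 14 measured Kdm members were at least 1.5-fold higher and 0 lower. Of 57 measured members in all, 15 were higher (26.3%, against 15.2% of 9297 genes) and 4 lower (7.02%, against 21.6%). The median log2 ratio of members was 0.35, against -0.04 over all genes. All 19 called members pointed the same way in both runs. Under the 7 other clusterings 12 of the 15 higher and 3 of the 4 lower stayed past the limit throughout, Sirt6, Kmt2e, Kdm1b and Hdac10 did not, and Kdm1b was past it in none of them. This comparison shares its radial glia-like cells with the one above, so the ratios are not independent of it.

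Kdm7a, a Jumonji demethylase that binds trimethylated H3K4, was 2.74-fold higher (2.35 to 3.2), with 268 CPM (241 to 297) in intermediate progenitor-like cells and 97.7 CPM (87.1 to 109) in radial glia-like cells. The distance was 3.38-fold in the first run and 2.14-fold in the second. The H3K4 demethylases Kdm5b, Kdm1a and Kdm1b were 2.49-fold (2.11 to 2.95), 2.36-fold (2.14 to 2.6) and 1.52-fold higher (1.12 to 2.03). Kdm6b was 2.44-fold higher (2.09 to 2.85), while its paralogue Kdm6a stayed under the limit at 1.48 (1.15 to 1.9). Of the H3K9 and H3K36 demethylases, Kdm4a was 1.98-fold higher (1.61 to 2.44), Kdm4b 1.67-fold higher (1.25 to 2.23) and Kdm4c 1.53-fold higher (1.1 to 2.12).

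Chd7 had its highest level of the 7 classes here, 470.4 CPM (434 to 509) in intermediate progenitor-like cells and 225 CPM (209 to 242) in radial glia-like cells, 2.09-fold higher (1.88 to 2.33). Both runs gave that order, with 452 and 492 CPM in intermediate progenitors, against 223 and 227 CPM in radial glia. Chd3 was 2.03-fold higher (1.83 to 2.26), Hdac5 2.19-fold higher (1.81 to 2.63) and Kmt2e 1.56-fold higher (1.41 to 1.73). Of the sirtuins, Sirt4, a mitochondrial enzyme, and the nuclear Sirt6 and Sirt7 were 1.74-fold (1.14 to 2.66), 1.59-fold (1.08 to 2.32) and 1.58-fold higher (1.14 to 2.18). Chd1l was 3.78-fold lower (1.82 to 9.09), Setd6 2.12-fold lower (1.25 to 3.81) and Setd8 1.8-fold lower (1.48 to 2.19). Hdac10 was also called lower, but with 12 UMIs in intermediate progenitors its interval included 1, at 0.635 (0.306 to 1.22). Among members under the limit, Hdac2 and Chd4 had ratios of 1.28 (1.17 to 1.4) and 1.29 (1.16 to 1.43).

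The classes differed in division, with 6.85% of intermediate progenitor-like cells and 58.7% of radial glia-like cells holding at least 2 UMIs of a G2/M list after each cell was thinned to 1000 UMIs. The unnamed cluster of 216 cells that scored best on the intermediate progenitor list, led by genes of dividing cells, is outside this class. The 6.85% and the ratios of this step therefore leave it out. The G2/M limit can leave cells in S phase among those called not dividing. Radial glia-like cells under it had 3578 CPM of the S-phase genes, against 4434 CPM in dividing ones. All intermediate progenitor-like cells had 1203 CPM and all excitatory neuron-like cells 472 CPM. With dividing cells left out, 381 intermediate progenitor-like and 353 radial glia-like cells remained. Then 11 of 51 measured members were higher (13.5% of all genes) and 1 was lower, Setd8, where 17.3% of all genes were. Chd1l (6 and 14 UMIs in intermediate progenitor-like and radial glia-like cells), Setd6 (14 and 28) and Hdac10 (12 and 18) were then under the minimum for a ratio. Kdm1a stayed at 2.18-fold (1.92 to 2.48), Kdm4a at 2.2-fold (1.65 to 2.97) and Hdac5 at 2.04-fold (1.59 to 2.64). Kdm7a and Kdm5b came down to 1.78-fold (1.48 to 2.15) and 1.59-fold (1.3 to 1.95). Chd7 was then under the limit, at 1.45-fold (1.28 to 1.65). So were Kmt2e (1.35), Kdm4c (1.25), Kdm1b (1.21), Sirt4 (1.27), Sirt6 (1.42) and Sirt7 (1.08).

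From intermediate progenitors to migrating excitatory neuron-like cells fewer members differed. Of 55 measured members 3 were higher in migrating cells (5.45%, against 9.82% of 8309 genes) and 7 lower (12.7%, against 13%). Chd7 was 5.43-fold lower (4.62 to 6.39), with 86.7 CPM (75.1 to 99.6) in migrating cells and 470.4 CPM (434 to 509) in intermediate progenitors. Hdac9 was 2.32-fold higher (1.68 to 3.25), with 83.2 CPM (71.9 to 95.9) and 35.9 CPM (26.5 to 47.6) in the same order of classes. That call was lost under 3 of 7 other ways of clustering, with 1000 features, with members allowed as features and with doublets removed, where the log2 ratio was 0.00024 to 0.092. None of the 3 higher calls, Hdac9, Hdac10 and Hdac6, held under all 7, and 4 of the 7 lower ones did (Chd7, Hdac11, Kdm6a and Kdm7a). Hdac11, the only class IV deacetylase, was 2.62-fold lower (1.57 to 4.43) on 27 UMIs in migrating cells and 41 in intermediate progenitors. Kdm6a was 1.81-fold lower (1.37 to 2.4), Kdm7a 1.7-fold lower (1.47 to 1.97) and Setd7, an H3K4 monomethyltransferase, 1.59-fold lower (1.24 to 2.03). Hdac6, the cytoplasmic tubulin deacetylase, was 1.53-fold higher (1.16 to 2.04). Hdac10, Hdac8 and Hdac1 were called too, but their ratios of 1.88 (0.966 to 3.95), 0.622 (0.356 to 1.09) and 0.616 (0.369 to 1.03) had intervals that included 1. Kdm1a, Hdac2, Kmt2e and Chd3, the members with the most UMIs under the limit, had ratios of 1.05, 1.11, 1.25 and 1.14.

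Among migrating and intermediate progenitor cells that were not dividing, 5 of 54 measured members were higher (10.2% of all genes) and 7 lower (13.3%). Hdac9 was uneven among migrating cells. The cluster with Neurod1 and Nhlh1 among its leading genes, known from newborn neurons, had 115 CPM of Hdac9 (153 UMIs), against 39.7 CPM (39 UMIs) in the Pdzrn3-led cluster. By run, migrating cells had 59 CPM in the first and 113 CPM in the second, above the intermediate progenitors of either run (26.1 and 45.5 CPM).

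The last step set excitatory neuron-like cells against migrating cells. Of 58 measured members 5 were higher (8.62%, against 17% of 9994 genes) and 12 lower (20.7%, against 12.2%), and 44 of the 58 had a ratio below 1. The median log2 ratio of members was -0.28, against -0.02 over all genes. Hdac9 was 7.85-fold lower (5.98 to 10.4), with 10.6 CPM (8.32 to 13.3) in excitatory neuron-like cells and 83.2 CPM (71.9 to 95.9) in migrating cells. The distance was 5.78-fold in the first run and 10.3-fold in the second. Chd7 was 2.58-fold lower (2.12 to 3.12), Chd6 2.31-fold lower (1.98 to 2.69), Chd9 1.75-fold lower (1.45 to 2.11), Chd2 1.71-fold lower (1.43 to 2.04) and Chd1 1.55-fold lower (1.25 to 1.92), so 5 CHD members were lower. Among cells that were not dividing, 5 of 58 were higher (17%) and 14 lower (12.4%). Under the 7 other clusterings 7 of the 12 lower members and 3 of the 5 higher ones stayed past the limit, and Kdm1a, Setd5, Hdac4, Chd2, Chd9, Setd6 and Setd4 did not. For Chd9 and Chd2 the first run alone was under the limit, at 1.28-fold and 1.24-fold.

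Of the 8 Kdm members called higher in intermediate progenitors, Kdm7a and Kdm1a were called lower at this last step. Kdm7a was 1.89-fold lower (1.65 to 2.16), Kdm3a, an H3K9 demethylase, 1.72-fold lower (1.52 to 1.94) and Kdm1a 1.51-fold lower (1.42 to 1.6), just past the limit. Setdb2 was 1.93-fold lower (1.29 to 2.86), Hdac4 1.67-fold lower (1.12 to 2.47) and Setd5 1.56-fold lower (1.26 to 1.93). Hdac11 was 2.91-fold higher (1.95 to 4.51), with 34.1 CPM (29.9 to 38.7) in excitatory neuron-like cells and 11.7 CPM (7.71 to 17) in migrating cells. Chd5 was 2.61-fold higher (1.69 to 4.23), Chd3os 1.86-fold higher (1.51 to 2.31) and Setd6 1.74-fold higher (1.18 to 2.64). Setd4 was called higher with an interval that included 1, at 1.55 (0.982 to 2.55).

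The members differed in where along the lineage they were highest. Chd3 was lowest in radial glia and stood at 243, 494, 564 and 614 CPM in radial glia-like, intermediate progenitor-like, migrating and excitatory neuron-like cells. Kdm1a peaked in the middle, with 272, 641, 674 and 448 CPM in the same order. Chd7 and Kdm7a peaked in intermediate progenitors, and Kdm7a had 97.7, 268, 157 and 83.2 CPM. Setd8 and Chd1l were highest in radial glia, with 175, 97.2, 95.8 and 106 CPM for Setd8, where the intervals of the last 3 overlapped.

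**Figure D3:**
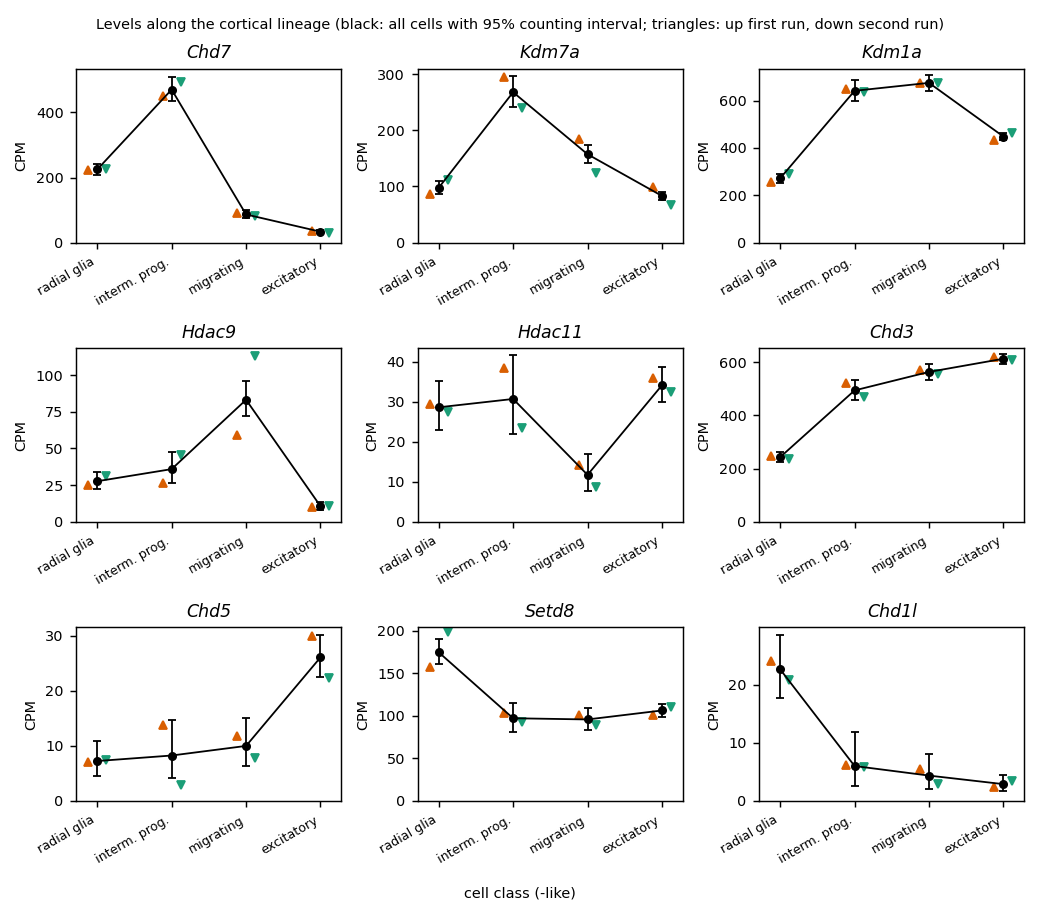
Levels (CPM) of 9 members along the cortical lineage, in radial glia-like, intermediate progenitor-like, migrating excitatory and excitatory neuron-like cells; black points are all cells with 95% counting intervals, upward triangles the first run and downward triangles the second. Chd7 peaks at 470.4 CPM in intermediate progenitors, Hdac9 at 83.2 CPM in migrating cells in this clustering, and Hdac11 is lowest in migrating cells.

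In the ventral forebrain, interneuron-like cells were set against ganglionic eminence progenitor-like cells. Of 53 measured members 11 were higher (20.8%, against 20.4% of 8855 genes) and 4 lower (7.55%, against 24.3%). Under the 7 other clusterings 6 of the 11 (Chd5, Hdac11, Chd3os, Kdm5b, Kmt2e and Hdac7) and 2 of the 4 (Chd7 and Setd8) stayed past the limit throughout. Chd5 was 5.97-fold higher (3.72 to 10.1), with 65.9 CPM (55.3 to 78.1) in interneuron-like cells and 11 CPM (6.75 to 17.1) in the progenitors. Hdac11 was 2.46-fold higher (1.78 to 3.43), with 71.8 CPM (60.7 to 84.5) and 29.3 CPM (21.9 to 38.3) in the same order. Chd3os was 2.4-fold higher (1.96 to 2.96), Kdm5b 2.01-fold higher (1.69 to 2.41) and Kmt2e 1.99-fold higher (1.8 to 2.2). Hdac7, a class IIa deacetylase known from endothelium and thymocytes, was 1.76-fold higher (1.32 to 2.36), Chd3 1.73-fold higher (1.56 to 1.93), Kdm6b 1.73-fold higher (1.48 to 2.03) and Kdm4b 1.71-fold higher (1.26 to 2.35). The progenitors of the second run were few, and the direction of Sirt4 (1.71-fold pooled, 0.534 in the second run) and Setd7 (1.65 pooled, 0.811) was the opposite there.

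Setd8 was 2.36-fold lower (1.92 to 2.91), Chd7 2.01-fold lower (1.69 to 2.39) and Setd1a 1.84-fold lower (1.34 to 2.53) in interneuron-like cells. Hdac9 was 2.11-fold lower (1.27 to 3.58) in the pool, but in the second run its ratio was 2.56 on 1 UMI in the progenitors. A cluster of 102 interneuron-like cells led by Lhx8, a gene of cholinergic and other ventral neurons, lay wholly in the first run and had the highest Chd5 level of the interneuron-like clusters, 111 CPM. Without it the counts stayed at 11 higher and 4 lower, and the log2 ratio of Chd5 was 2.38, against 2.58 with it. Chd5 had 89.4 CPM in the Sst-led, 47.9 CPM in the Sp8-led and 30.4 CPM in the Maf-led interneuron-like cluster. Hdac7 was uneven too, with 95.9 CPM in the Sp8-led, 91.3 CPM in the Maf-led and 73.2 CPM in the Lhx8-led cluster. In the Sst-led cluster it had 34.5 CPM (22 UMIs), against 49.2 and 31.9 CPM in the progenitor clusters led by Dlx2 and Olig2. Among cells that were not dividing, 12 of 48 measured members were higher (22.9% of all genes) and 4 lower (22.2%). There Setd8 (1.43-fold lower), Setd7 (1.25) and Sirt4 (1.14) were under the limit.

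Striatal neuron-like cells were set against the same ganglionic eminence progenitor-like cells, so both ventral comparisons share their progenitors. Of 50 measured members 11 were higher (22%, against 17.9% of 7879 genes) and 6 lower (12%, against 26.1%). Under the 7 other clusterings 4 of the 11 (Chd5, Chd3, Hdac7 and Sirt5) and 5 of the 6, all but Kdm6a, stayed past the limit throughout. Chd5 was 5.52-fold higher (3.18 to 9.88) and Chd3 2.67-fold higher (2.37 to 3.01), and Chd3 reached its highest level of the 7 classes, 798 CPM (734 to 865), against 299 CPM (274 to 325) in the progenitors. Kdm6b was 2.28-fold higher (1.9 to 2.75), with 309 CPM (269.6 to 352) in striatal neuron-like cells and 135 CPM (119 to 153) in the progenitors. Hdac7 was 2.24-fold higher (1.58 to 3.16), Kdm5b 1.97-fold higher (1.57 to 2.46) and Chd3os 1.9-fold higher (1.44 to 2.48). Sirt5, a mitochondrial desuccinylase, was 2.08-fold higher (1.16 to 3.69), Setd1b 1.59-fold higher (1.25 to 2.01) and Kmt2e 1.62-fold higher (1.42 to 1.85). Kdm7a was 1.6-fold higher (1.25 to 2.04) and Chd1 1.52-fold higher (1.04 to 2.19), and among cells that were not dividing both were under the limit, at 1.3-fold and 1.09-fold. Kdm7a also took the opposite direction under 2 other clusterings.

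On the lower side, Chd7 had 45.7 CPM (31.5 to 64.2) in striatal neuron-like cells, against 207 CPM (186 to 229) in the progenitors, and was 4.52-fold lower (3.16 to 6.66). Chd2 was 2.09-fold lower (1.35 to 3.39), Setd1a 1.96-fold lower (1.23 to 3.25) and Setd8 1.84-fold lower (1.39 to 2.45). Among cells that were not dividing, 7 of 42 measured members were higher (20.3% of all genes) and 4 lower (21.7%), and Setd8 had a ratio of 0.992 (0.677 to 1.46). Hdac9 was 3.75-fold lower (1.5 to 12.1) on 5 UMIs in striatal neuron-like cells, and Kdm6a had a ratio of 0.634 (0.378 to 1.02). The second run held 18 striatal neuron-like cells, and there Hdac9 and Setd1a pointed the other way.

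The neuron-over-progenitor ratios of the 2 lineages were then set side by side for the 53 members measured in both, excitatory over radial glia-like and interneuron over ganglionic eminence progenitor-like. These share no cells, although they share the pool and its depth. The first and second runs held 562 and 233 interneuron-like cells, against 481 and 31 of their progenitors. They held 722 and 792 excitatory neuron-like cells, against 511 and 343 radial glia-like cells. Run and class are therefore partly mixed in the ventral ratios, and the differences below are of pooled values. Of the 53 members, 10 were called in both the same way (33.7% of the 8786 genes) and 0 in opposite ways (1.08%). Pearson's r of the log2 ratios was 0.78 over the 53 members, a description across genes, and 0.84 over all genes measured in both. For 19 of 53 members the 95% counting interval of the difference between the log2 ratios excluded 0, with no correction for the number of members, as it did for 34.2% of the 8786 genes.

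Chd7 was lower in neurons of both lineages but by more in the cortex, with a cortical minus ventral log2 difference of -1.73 (interval -2.06 to -1.41). Chd6 was lower in excitatory neuron-like cells and near the progenitor level in interneuron-like cells, with 55.4 CPM there and 119 CPM in radial glia, against 125 CPM in interneuron-like cells and 126 CPM in their progenitors, a difference of -1.10 (interval -1.43 to -0.77). Setd7 had a difference of -1.24 (interval -1.74 to -0.74), Sirt1 of -0.76 (interval -1.24 to -0.27) and Chd1 of -0.76 (interval -1.27 to -0.25), all toward lower cortical ratios. Hdac11 was higher in interneuron-like cells and not called in excitatory neuron-like cells, with a difference of -1.04 (interval -1.61 to -0.47). Its level in interneuron-like cells was 59.1 CPM in the first run and 103 CPM in the second.

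In the other direction, Kdm2b had a difference of 0.80 (interval 0.38 to 1.21), Kdm1b of 0.67 (interval 0.19 to 1.15) and Chd3 of 0.54 (interval 0.36 to 0.73). Setd8, Hdac5 and Kdm1a also had the higher ratio in the cortex, with differences of 0.52 (interval 0.19 to 0.85), 0.42 (interval 0.06 to 0.78) and 0.36 (interval 0.16 to 0.55). Among cells that were not dividing, the log2 ratios of Setd8 were close, at -0.43 in the cortical and -0.52 in the ventral lineage. Chd7 (-3.34 and -1.39) and Chd3 (1.28 and 0.82) kept the order of the lineages there. No interval was taken of these differences. For Chd5 the intervals did not separate the lineages, at -0.73 (interval -1.65 to 0.20), and neither did they for Kdm5b, at 0.05 (interval -0.26 to 0.37).

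**Figure D4:**
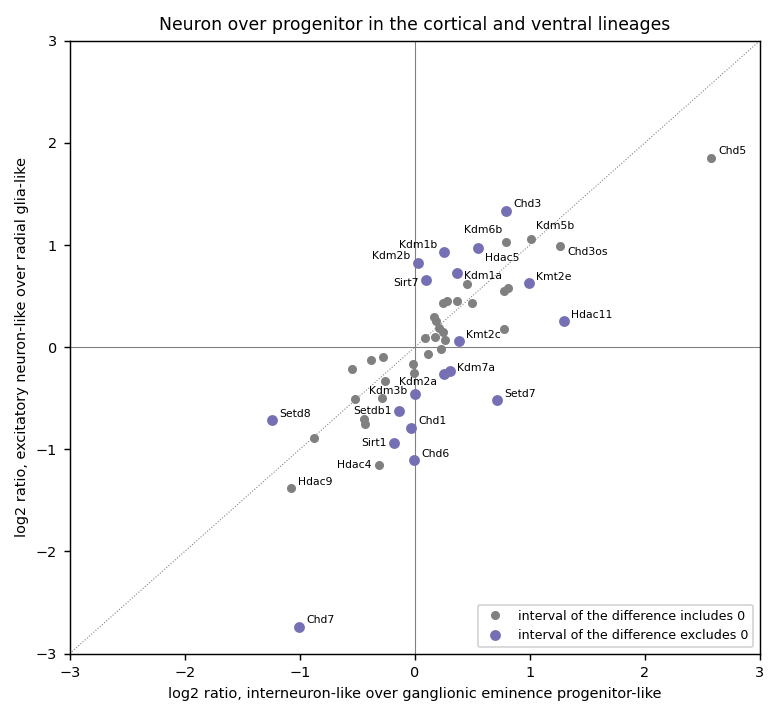
Log2 ratio of excitatory neuron-like over radial glia-like cells (vertical axis) against log2 ratio of interneuron-like over ganglionic eminence progenitor-like cells (horizontal axis) for the 53 members measured in both; the dotted line marks equal ratios and purple points have a difference whose 95% counting interval excludes 0. Chd7 lies farthest below the line and Chd5 at the upper right.

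Division was examined inside the radial glia-like class, with 501 dividing cells set against 353 other cells. Of 55 measured members 3 were higher in dividing cells (5.45%, against 8.47% of 8524 genes) and 9 lower (16.4%, against 7.77%). The 9 became 3 at a clustering resolution of 0.5, with doublets removed and with clusters drawn on 50% of UMIs, and Kdm5b was the only one of them lower by 1.5-fold under all 7 other clusterings. Kdm5b had 57.3 CPM (47.4 to 68.8) in dividing cells, against 136 CPM (116 to 159) in the others, and was 2.37-fold lower (1.86 to 3.04). Kdm7a was 2.24-fold lower (1.78 to 2.83) and Chd7 2.06-fold lower (1.77 to 2.39), with 162 CPM in dividing cells and 334 CPM in the others. Under the other clusterings the log2 ratio of Chd7 was -0.53 to -0.33, under the limit in all 7. These 3 were among the members higher in intermediate progenitor-like cells above, where the values among cells that were not dividing are given. Sirt7 was 1.74-fold lower (1.15 to 2.64), Hdac7 1.68-fold lower (1.14 to 2.47), Kdm6b 1.6-fold lower (1.28 to 2.0), Kdm4c 1.54-fold lower (1.01 to 2.34) and Kdm2a 1.5-fold lower (1.21 to 1.86), and Sirt4 had a ratio of 0.662 (0.379 to 1.17). With clusters drawn on 50% of UMIs, Kdm2a, Kdm4c and Sirt7 took the opposite direction, and Sirt4 did so with 1000 features.

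Chd1l was 2.38-fold higher (1.31 to 4.62) in dividing cells, with 58 UMIs there and 14 in the others. Kmt2b, an H3K4 methyltransferase, was 1.93-fold higher (1.42 to 2.66), by 1.32-fold in the first run and 3.34-fold in the second. Chd9 was 1.85-fold higher (1.23 to 2.84), by 2.89-fold and 1.26-fold in the first and second runs. Setd8, whose protein is known to accumulate in G2 and mitosis, stayed under the limit, with 193 CPM in dividing cells and 144 CPM in the others, a ratio of 1.34 (1.12 to 1.62). Hdac2 did not differ beyond counting error, at 1.03 (0.916 to 1.15). The dividing cells were deeper, with a median of 3690 UMIs against 2973 in the others. Sirt7, too, differed between runs, with a distance of 2.11-fold in the first and 1.36-fold in the second. Without the shallowest radial glia-like cluster, of 149 cells and a median of 1727 UMIs, the counts were again 3 higher and 9 lower.

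**Figure D5:**
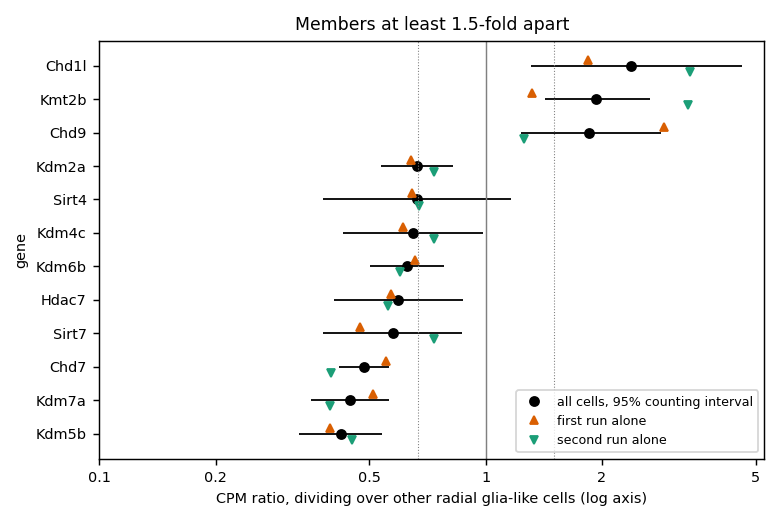
Ratio of CPM in dividing over other radial glia-like cells (log axis) for the 12 members at least 1.5-fold apart; points are all cells with the 95% counting interval, triangles are each run alone, and dotted lines mark the 1.5-fold limit. Kdm5b, Kdm7a and Chd7 lie lowest, although Kdm5b alone of the lower members stays past the limit under all 7 other clusterings, and the runs of Kmt2b and Chd9 lie far apart.

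Over the 7 comparisons, 46 of the 59 members measured at least once were called in at least 1, against 76.4% of the 10724 genes measured at least once. Chd7 was the only member called in all 7 (0.345% of all genes), although its call in dividing radial glia was lost under the other clusterings. It was highest in intermediate progenitor-like cells, with 470.4 CPM, and had 225 CPM in radial glia-like cells, 207 CPM in ganglionic eminence progenitor-like cells and 103 CPM in interneuron-like cells. The levels of 86.7, 45.7 and 33.6 CPM in migrating, striatal neuron-like and excitatory neuron-like cells were the lowest. Of neighbours in that order, radial glia-like and ganglionic eminence progenitor-like cells had overlapping intervals, as did interneuron-like and migrating cells, and striatal and excitatory neuron-like cells. Kdm5b, Kdm6b, Kdm7a and Hdac9 were called in 5 comparisons each. These counts describe comparisons that share classes.

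The 13 members called in none had ratios of 0.692 to 1.49 in every comparison where they were measured. They were the remodellers Chd4 and Chd8, the deacetylases Hdac2 and Hdac3, Sirt2 and Sirt3, the demethylases Kdm3b and Kdm5a, the H3K4 methyltransferases Kmt2a, Kmt2c and Kmt2d, the H3K36 methyltransferase Setd2, and Setd3, which methylates actin. Hdac3, the deacetylase of the NCoR complex, had 104, 84.5, 94.9 and 103 CPM in radial glia-like, intermediate progenitor-like, migrating and excitatory neuron-like cells. Setd2 had 122, 137, 127 and 102 CPM in the same order. Chd8, known in humans from autism, had 101, 120.4, 125 and 112 CPM. Hdac2, the member with the most UMIs, had 415, 531, 587 and 509 CPM. Kdm8 joined Chdh as measured in no comparison.

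Some levels could hold RNA of overlapping genes, because the sources used here do not state whether counting used the strand. Of the 61 members 10 overlap a protein-coding gene on the opposite strand. Dek, which overlaps Kdm1b, had 79.6 CPM in excitatory neuron-like cells and 408 CPM in radial glia-like cells, opposite in direction to Kdm1b. Srpk2, which overlaps Kmt2e, had 235 CPM in excitatory neuron-like and 146 CPM in radial glia-like cells, the same direction as Kmt2e. Cers2, which overlaps Setdb1, had 48.8 CPM in excitatory neuron-like and 89.2 CPM in radial glia-like cells, again the same direction. The antisense RNA A930024E05Rik at Kdm2b had 7.85, 54.6, 121 and 12.2 CPM in radial glia-like, intermediate progenitor-like, migrating and excitatory neuron-like cells, with its peak in migrating cells, where Kdm2b was highest too. Their part in the members' levels was not tested.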

How the data were processed

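The authors deposited 1 matrix of raw UMI counts per gene and cell for 16 samples, with a gene list and a cell list. Cells were prepared with the Illumina and Bio-Rad SureCell droplet workflow, per the labels' protocols, and, per the submitters' processing notes, reads were placed on mm10. Aligner, counter, annotation and any doublet removal were not given in the sources used here. Every deposited gene was present in at least 5 cells, and no mitochondrial gene was listed. Cell names are serial numbers, so barcodes shared between libraries could not be counted and no animal could be separated. Every p-value would therefore treat cells as replicates, and none was computed.

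The 4 cells with over 10% globin UMIs were set apart. Counts were scaled to 10000 UMIs per cell and logged. From these, 2000 variable features were taken without the members, their companion genes or sex-linked genes (237 genes left out). Ribosomal genes were left out as well and are not in that count. Then 30 principal components with 15 neighbours were clustered by the Leiden method at resolution 1. Clusters were named from 176 markers in 21 lists: a list needed at least 3 raised markers and a mean log2 of at least 0.5. The general, deep-layer and upper-layer excitatory lists were treated as 1 class after seeing the data. Doublets were kept in the main analysis. Class sums were compared as described, with ratios called at 1.5-fold and at least 50 UMIs. The interval of a cortical minus ventral difference took the summed reciprocal counts as its variance. Dividing cells held at least 2 UMIs of 30 G2/M genes after thinning to 1000 UMIs, and S-phase genes were not used. The ratios were tested on simulated data.

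The members and the lists were chosen with earlier results of these data known. In each comparison the members called were named, up to 12 in a direction, with up to 4 of the most counted members under the limit. Others, such as Setdb1, Sirt6, Kdm5a, Kdm6a, Chd8 and Chd9, were named after their values were seen, as partners in a role or as further called members. Alternatives changed the clustering, the minimum, the limit, the weighting, the scaling, doublets, the run and the definition of dividing. A companion list is not reported here. Positions came from GENCODE M21. Tools were Python 3.11.15, numpy 2.4.6, scipy 1.17.1, pandas 2.3.3, scikit-learn 1.9.0, leidenalg 0.10.2, python-igraph 0.11.9 and matplotlib 3.10.9.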

Additional observations from a re-analysis of the deposited data

How the results depend on the processing

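Of 116 member ratios at 1.5-fold or more, 104 kept their direction under every alternative, and 14 of 1824 alternative values had the opposite sign. Raising the limit to 2-fold left 5 higher and 6 lower members in excitatory neuron-like over radial glia-like cells, 7 and 2 in intermediate progenitor-like over radial glia-like cells, 1 and 2 in migrating over intermediate progenitor-like cells, and 2 and 3 in excitatory over migrating cells. It left 4 higher in interneuron-like over ganglionic eminence progenitor-like cells, where Setd8, Hdac9 and Chd7 stayed lower. It left 5 higher and 3 lower in striatal neuron-like over ganglionic eminence progenitor-like cells, and 1 higher and 3 lower in dividing over other radial glia-like cells. The 4 members lower in intermediate progenitors became 1 in the first run and 1 among cells that were not dividing. Among the latter cells Chd1l, Setd6 and Hdac10 were under the minimum of 50 UMIs and so were not measured. The 3 members higher in migrating cells became 6 at a clustering resolution of 0.5, 5 at a resolution of 2, 9 with 15 principal components, 6 with clusters drawn on 50% of UMIs, and 5 each with equal weight per cell, relative to the median of all genes, in the second run and among cells that were not dividing. They became 0 with 1000 clustering features, with members and lists allowed as features, or with the 5% highest doublet scores removed; the 7 lower became 4 in the second run. In interneurons the 4 lower became 8 with at least 10 UMIs or with no minimum. In striatal neurons the 11 higher became 6 with 15 principal components, 1 in the second run and 7 among cells that were not dividing, and the 6 lower became 0 in the second run. In dividing radial glia the 3 higher became 5 with clusters drawn on 50% of UMIs, 6 with at least 10 UMIs, 7 with no minimum, 1 in the second run, and 5 with dividing set at 1 or at 3 G2/M UMIs. The 9 lower became 3 at a resolution of 0.5, 3 with doublets removed and 3 with clusters on 50% of UMIs.

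The opposite signs, on the log2 scale, were as follows. For migrating over intermediate progenitor-like cells, Hdac1 reached 0.11 with members allowed as features and 0.033 in the first run, and Hdac10 reached -0.18 with doublets removed. For interneurons in the second run, Hdac9 stood at 1.36, Setd7 at -0.30 and Sirt4 at -0.91. For striatal neurons, Hdac9 stood at 1.71 and Setd1a at 0.13 in the second run, and Kdm7a at -0.31 with 15 principal components and -0.15 with clusters on 50% of UMIs. For dividing radial glia, clusters on 50% of UMIs gave 0.30 for Kdm2a, 0.35 for Kdm4c and 0.022 for Sirt7, and 1000 features gave 0.15 for Sirt4. The causes were not tested, beyond the second run holding 31 ganglionic eminence progenitor-like cells.

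Leaving out dividing cells, the shallowest radial glia-like cluster or the Lhx8-led cluster was chosen after seeing the data. No paired analysis was possible because the cells carry no sample or replicate. Without replicates the intervals hold counting error only, and differences between animals are not known. Members under 50 UMIs in a comparison could not be read at this depth.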

Other observations

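The 4 small classes entered no comparison. Hdac7 had 274 CPM (198 to 369) in the 29 meningeal fibroblast-like cells, on 43 UMIs, against 35.8 CPM in radial glia-like cells. Setd1a had 127 CPM (77.8 to 197) there, against 61.9 CPM in radial glia-like cells. In the 18 microglia-like cells Sirt2, a cytoplasmic tubulin deacetylase, had 269.7 CPM (162 to 421) and Setd8 had 241 CPM (141 to 386), against 95.5 and 175 CPM in radial glia-like cells. Chd7 had 227 CPM (153 to 324) in the 26 choroid plexus-like cells. The 75 Cajal-Retzius cell-like cells, early-born neurons of the marginal zone, had 249 CPM (198 to 309) of Chd7, against 33.6 CPM in excitatory neuron-like cells. They had 132 CPM (95.7 to 178) of Hdac11, against 34.1 CPM in excitatory neuron-like cells, and 76.9 CPM (49.7 to 113) of Chd5, against 26.1 CPM. These genes were picked for their levels in these classes, so the values are a description with no test, and the classes hold few cells.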
